A study of Mus musculus with 6 samples.

Results

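Tmem176a and Tmem176b are 2 genes that lie side by side on mouse chromosome 6, and each was measured by 1 probe set of the array, out of 35557 probe sets and 19938 genes with a probe set of their own symbol. They were identified by gene symbol, and they were picked because both had been among the genes with the largest signal differences between the genotypes of this study. Their genotype difference and their likeness to each other are therefore described here and not tested. Mouse yolk sacs taken at embryonic day 9.5 were profiled on Mouse Gene 1.0 ST arrays, 1 array per sample. The groups were 3 wild-type littermates and 3 embryos labelled Tnrc6a (GW182) mutant, homozygous for a gene-trap allele (GW182gt/gt). No other allele or agent is named for either group, and the labels add the unexplained word mixed to both genotypes. Per the labels' protocols, RNA came from the yolk sac of an individual embryo.

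Tnrc6a encodes GW182, a partner of Argonaute proteins in microRNA silencing. TMEM176A and TMEM176B are small multi-pass membrane proteins related to the MS4A family, the family of the B cell antigen CD20. Both have been found in endosomal compartments, above all of dendritic cells, macrophages and RORgt-positive lymphoid cells, and TMEM176B is known as a cation channel that restrains the NLRP3 inflammasome. The yolk sac at this stage is built of visceral endoderm, mesenchyme, endothelium, primitive red cells and macrophages.

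The RefSeq starts of the genes point away from each other. In the GRCm38.p6 promoter table Tmem176a has 2 starts on the plus strand and Tmem176b has 3 on the minus strand, and the nearest divergent starts are 109 bases apart. The stretch between these starts is shown because it lies upstream of both members, with the only E-box in it (CANNTG, which reads the same on both strands) in capitals. It spans chr6:48841375-48841482, plus strand, 5′ to 3′.
Tmem176b to Tmem176a interval: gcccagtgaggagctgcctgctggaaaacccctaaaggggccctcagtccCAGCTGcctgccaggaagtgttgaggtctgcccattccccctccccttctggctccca
The stretch is 63.9% G and C and holds 0 CpG dinucleotides. Over the 250 bases before each annotated start, an E-box was found in 2 of 2 Tmem176a windows and 3 of 3 Tmem176b windows, and in 66.2% of 32851 promoter windows of the same length. One form of the site bound by the myeloid factor PU.1 (GAGGAA, either strand) was found in 1 window of each gene, where the windows overlap. It was found in 23.3% of all windows, and other forms of this site were not searched. The 7 other motifs searched on both strands were not in these windows. They were the TATA box TATAAA (12.4% of all windows), CCAAT (33.8%), the GC box GGGCGG (32.7%), the AP-1 site TGANTCA (6.75%), the GATA site AGATAA (9.99%), the nuclear receptor half-site AGGTCA (14%) and the hypoxia response core ACGTG (16.6%). In the gene annotation the whole span of Tmem176a lies within the longest annotated span of Tmem176b on the other strand. The sources used here do not give the positions of the array's probes, and whether a probe of one gene could also read transcripts of the other was not tested.

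The deposited values are log2 signals, and array medians ran from 5.19 to 5.22. The visceral endoderm marker Afp, alpha-fetoprotein, read 12.56 to 12.68 on all arrays. Tnrc6a, the disrupted gene, read 8.40, 7.62 and 8.29 in wild types 1 to 3, 5.33 and 5.20 in mutants 2 and 3, and 7.81 in the library labelled mutant 1. The level in the library labelled mutant 1 goes against its label, and every mutant mean below includes this library. Wild type 2 and mutant 2 stood apart by genes of trophoblast and decidua, with list means of 0.54 and 0.39 above the wild-type mean against −0.37 to −0.17 on the other arrays. Of 16387 probe sets tested with limma, 0 passed an adjusted p of 0.05 between the genotypes (0%) and 579 (3.53%) had an unadjusted p under 0.05. The methods' t-test put 627 under an unadjusted p of 0.05 and 0 after Benjamini-Hochberg adjustment.

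Tmem176b had a higher signal in the mutant yolk sacs. It read 6.42, 6.84 and 6.48 in wild types 1 to 3, 7.82 in mutant 2, 7.57 in mutant 3 and 6.94 in the library labelled mutant 1. The groups did not overlap, but the library labelled mutant 1 lay just above wild type 2 and far below the other mutants. The wild-type mean was 6.58 ± 0.23 (SD, n = 3) and the mutant mean 7.45 ± 0.45 (SD, n = 3), a log2 difference of 0.86 (SE 0.23, 95% interval 0.34 to 1.39), or 1.82-fold. Mutants 2 and 3 stood 2.37-fold and 1.98-fold above the wild-type mean and the library labelled mutant 1 stood 1.28-fold above it, while wild type 2 stood 1.20-fold above. In whole yolk sacs more cells that express a gene and more RNA per cell cannot be told apart.

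Tmem176a followed the same order of arrays at a smaller size. It read 5.99, 6.28 and 6.04 in wild types 1 to 3, 7.18 in mutant 2, 6.70 in mutant 3 and 6.44 in the library labelled mutant 1. Here too the groups did not overlap, and again wild type 2 came nearest to the library labelled mutant 1. The means were 6.11 ± 0.16 (SD, n = 3) and 6.77 ± 0.38 (SD, n = 3), a log2 difference of 0.67 (SE 0.19, 95% interval 0.23 to 1.10), or 1.59-fold. Relative to the wild-type mean the signal was 2.10-fold in mutant 2, 1.51-fold in mutant 3 and 1.26-fold in the library labelled mutant 1. Both members thus had groups without overlap and mutants higher, as did 847 of the 16387 tested probe sets (5.17%, or 8.55% in either direction), and since the members were picked on this contrast nothing is read from their count. When the library labelled mutant 1 and wild type 2 were both left out, the differences were 1.24 for Tmem176b and 0.92 for Tmem176a. These arrays lay nearest to the other genotype for both genes, so the differences had to widen. With the library labelled mutant 1 alone left out they were 1.11 and 0.83.

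**Figure D1:**
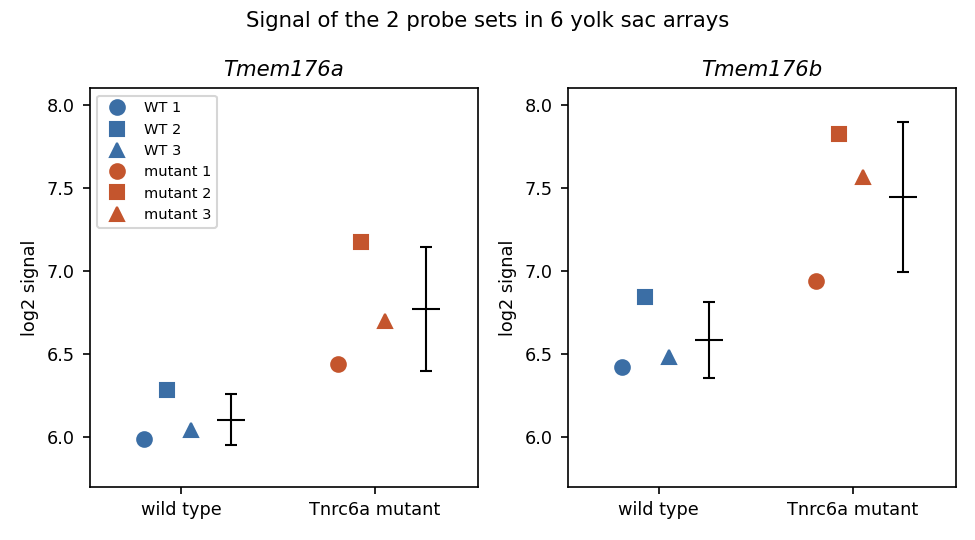
Log2 signal (vertical axis) of Tmem176a (left) and Tmem176b (right) in each of the 6 arrays, by genotype. Points are arrays, and bars give the mean ± SD of 3 arrays. For both genes the library labelled mutant 1 lies close to wild type 2, and mutant 2 is the highest array, at 7.18 and 7.82.

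The members varied more between arrays than most probe sets. The range over the 6 arrays was 1.40 for Tmem176b and 1.19 for Tmem176a, against a median of 0.347 over all tested probe sets. Larger ranges were seen in 0.976% and 1.81% of tested probe sets. The members were picked for a large genotype difference, which the range over all arrays contains, so nothing is read from these shares. Within wild type the SDs of 0.23 and 0.16 lay above the median wild-type SD of 0.108, and within the mutants the SDs of 0.45 and 0.38 lay above the median mutant SD of 0.126.

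The arrays stood in the same order for both genes, from wild type 1 through wild type 3, wild type 2, the library labelled mutant 1 and mutant 3 to mutant 2. Pearson's r between them was 0.978 and Spearman's rho was 1.00 over the 6 arrays, given as a description with no p because the pair was taken for this likeness. The r was 0.931 for deviations from the genotype means, so the arrays of one genotype also differed in the same sense in both genes. Without mutants 2 and 3, the arrays farthest from the median of Tmem176b, r was 0.989 over the other 4. The members did not move by equal amounts in every array: the log2 gap between Tmem176b and Tmem176a, relative to its wild-type mean, was 0.39 in mutant 3, 0.17 in mutant 2 and 0.028 in the library labelled mutant 1, and ran from −0.044 to 0.084 in wild type. The gap was thus widest in mutant 3, the array in which Tmem176a was 6.70 against 7.18 in mutant 2 and Tmem176b was 7.57 against 7.82.

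Tnrc6a was lowest in the arrays in which the members were highest. Mutants 2 and 3 had Tnrc6a at 5.33 and 5.20, against 7.62 to 8.40 on the other 4 arrays, and the highest signals of both members. Wild types 1 and 3 had Tnrc6a at 8.40 and 8.29 and Tmem176b at 6.42 and 6.48, and the library labelled mutant 1 and wild type 2 had Tnrc6a at 7.81 and 7.62 and Tmem176b at 6.94 and 6.84. The opposite order did not hold in every pair of arrays: mutant 2 was above mutant 3, and the library labelled mutant 1 above wild type 2, in Tnrc6a and in both members. Over the 6 arrays r with Tnrc6a was −0.968 for Tmem176b and −0.903 for Tmem176a (exact permutation p = 0.00972, adjusted p = 0.0486 for each), and rho was −0.886 for both (exact permutation p = 0.0333, adjusted p = 0.167). Deviations from the genotype means gave r = −0.936 and −0.763, and without mutants 2 and 3 r was −0.937 and −0.874 over 4 arrays. The adjusted p of r was 0.0694 with quantile normalization and 0.0833 to 0.167 with 1 array left out, where fewer pairings exist. The members were picked for a difference between genotypes in which Tnrc6a is the disrupted gene, and Tnrc6a falls into 2 clusters of arrays, so these values are a description and nothing is read from the p.

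The chromosome around the pair was described through the nearest 10 protein-coding genes with a probe set on each side, in RefSeq order. Of these 20 genes 15 were bright enough to be tested, and limma called 0 of them at an adjusted p of 0.05, with 3 at an unadjusted p under 0.05 (Gimap1, Gimap8 and Gimap9), against 3.53% of all tested probe sets. On one side the pair borders the Gimap cluster, genes of immune-associated GTPases found in lymphocytes and endothelium. Its 5 tested members, Gimap1, Gimap4, Gimap6, Gimap8 and Gimap9, all had differences above 0, with a median of 0.26 on the log2 scale, where 52.4% of all tested probe sets were above 0 and the median of all was 0.00626. The median of these 5 was 0.43 when wild type 2 and the library labelled mutant 1 were left out. Gimap9 differed by 0.39 (SE 0.098, limma adjusted p = 0.999), with wild types at 5.87, 5.82 and 5.97, mutants 2 and 3 at 6.31 and 6.40 and the library labelled mutant 1 at 6.12. Its groups did not overlap, and all mutants lay above all wild types.

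Among these neighbours Gimap1 was closest to the members in its array pattern. It read 6.61, 6.81 and 6.59 in wild types 1 to 3, 7.39 in mutant 2, 7.18 in mutant 3 and 6.73 in the library labelled mutant 1. As for Tmem176a and Tmem176b, mutant 2 was highest and mutant 3 next, but wild type 2 lay above the library labelled mutant 1, so the groups overlapped. The difference was 0.43 (SE 0.17, limma adjusted p = 0.999). Its r with the mean of the members was 0.979 over 6 arrays and 0.983 for deviations from the genotype means, and 0.0915% of the 16387 tested probe sets, the members included, had an r at least as high. Its difference was 0.61 when the library labelled mutant 1 was left out, 0.29 without mutant 2, and 0.69 when wild type 2 was left out together with the former. Gimap8 differed by 0.26 (SE 0.10, limma adjusted p = 0.999) with no overlap, and its r with the members was 0.546. Gimap6 and Gimap4 differed by 0.23 and 0.18 with overlapping groups. Gimap3, Gimap5 and Gimap7 were dim, with means below the limit of 4.29, and were not tested.

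The genes beyond this cluster and on the other side showed no common direction. Of the 10 tested neighbours that are no Gimap gene, 5 had differences above 0 and 5 below, with a median of 0.020. Of them 0 had an unadjusted limma p under 0.05, against 3.53% of all tested probe sets. Nearest on that side, the predicted gene Gm7932 differed by −0.042 (adjusted p = 0.999 with limma). Aoc1, a diamine oxidase, read 6.63 in mutant 2 against 5.54 to 5.93 on the other arrays. Its relatives Doxl1 and Doxl2 were highest in wild type 2, at 5.66 and 5.29, and next in mutant 2, at 5.34 and 5.06. Mutant 2 was therefore the highest or next highest array for these 3 genes, as it was the highest for both members, but mutant 3 was not high in them. Igf2bp3, an oncofetal RNA-binding protein, differed by 0.079 and Tra2a, a splicing factor, by −0.20 at its brightest of 3 probe sets.

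**Figure D2:**
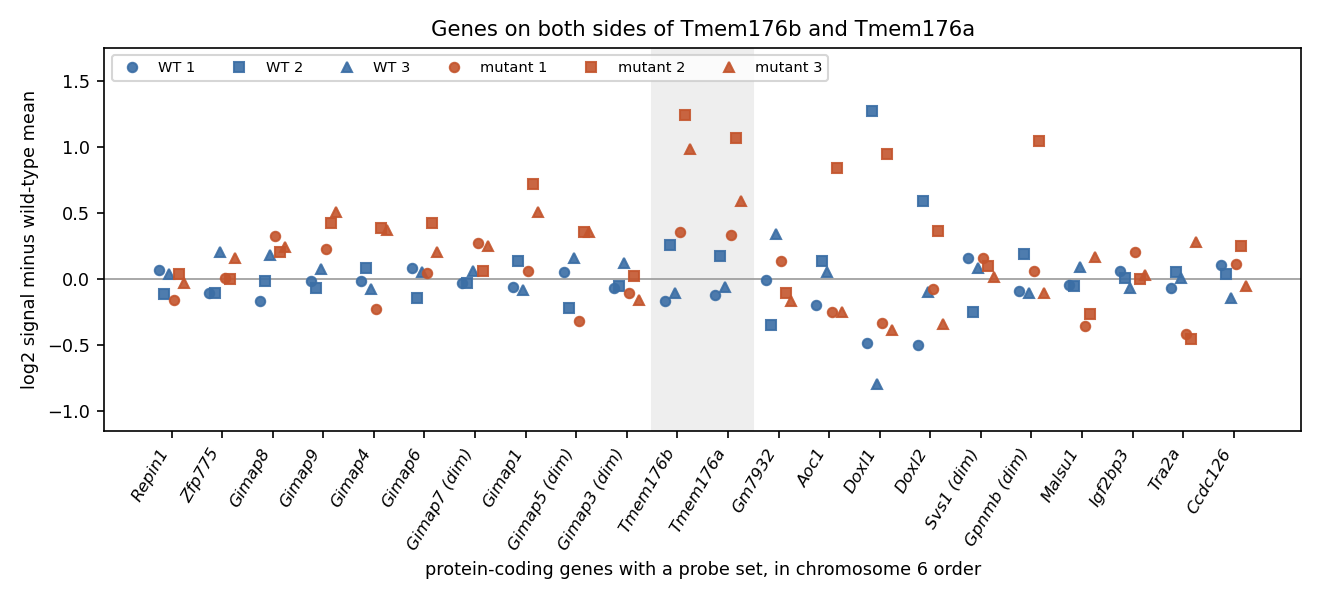
Log2 signal minus the wild-type mean (vertical axis) for Tmem176b and Tmem176a (shaded) and the 10 nearest genes with a probe set on each side, in chromosome 6 order (horizontal axis, not to scale in distance). Points are arrays, and genes marked dim were not tested. Mutants 2 and 3 lie above the wild-type mean in the tested Gimap genes, while the genes to the right of the pair show no common direction.

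The members were next set against 1 marker gene for each of 4 cell types: Csf1r, the receptor for macrophage growth factors, Afp, Pecam1, an adhesion molecule of endothelium, and Col1a1, a collagen chain of mesenchyme. None of these markers passed the limma test between genotypes (adjusted p = 0.999 for each). Pecam1 read 6.90, 7.50 and 7.01 in wild types 1 to 3, 7.45 in mutant 2, 7.97 in mutant 3 and 7.13 in the library labelled mutant 1, a difference of 0.38 (SE 0.23) that was 0.15 without mutant 3, 0.57 with the library labelled mutant 1 left out, 0.26 without wild type 1 and 0.75 when that library and wild type 2 were left out. Wild type 2 was above mutant 2 in Pecam1, so its groups overlapped. Csf1r was highest in wild type 2, at 6.84, and lowest in wild type 3 and mutant 3, at 5.59 and 5.61. Csf1r, 1 marker alone, was thus low in mutant 3, where Tmem176b was 1.98-fold above the wild-type mean. The part of macrophage RNA in the signal of the members was not tested. Col1a1 was highest in mutant 2 and lowest in mutant 3, at 11.51 and 10.58, and Afp moved by no more than 0.12 over all arrays.

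None of the 4 markers passed an exact two-sided permutation test of its correlation with a member over the 6 arrays. The markers were named together with the members, which were picked on the genotype contrast, and the permutations ignore genotype. The values for all 4 markers are therefore a description, and nothing is read from their p. With p adjusted over 10 relations, the 2 with Tnrc6a included, Pecam1 was nearest to Tmem176b, at r = 0.763 (exact permutation p = 0.0792, adjusted p = 0.264) and rho = 0.714 (exact permutation p = 0.136, adjusted p = 0.340), and r was 0.619 without the 2 arrays farthest from the Pecam1 median, mutant 3 and wild type 1. For Tmem176a and Pecam1, r was 0.622 (exact permutation p = 0.197, adjusted p = 0.493), rho was 0.714 (exact permutation p = 0.136, adjusted p = 0.340) and r without those arrays was 0.563. Csf1r gave r = 0.048 with Tmem176b (exact permutation p = 0.942, adjusted p = 0.942) and r = 0.107 with Tmem176a (exact permutation p = 0.832, adjusted p = 0.924), with rho = 0.143 for both (exact permutation p = 0.803, adjusted p = 0.803). Without wild types 2 and 3, the arrays farthest from the Csf1r median, r was 0.056 and 0.291.

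For Afp, r was 0.121 with Tmem176b (exact permutation p = 0.819, adjusted p = 0.924) and 0.279 with Tmem176a (exact permutation p = 0.589, adjusted p = 0.924), with rho = 0.143 for both (exact permutation p = 0.803, adjusted p = 0.803). For Col1a1, r was 0.184 with Tmem176b (exact permutation p = 0.707, adjusted p = 0.924) and 0.340 with Tmem176a (exact permutation p = 0.511, adjusted p = 0.924), with rho = 0.314 for both (exact permutation p = 0.564, adjusted p = 0.803). Without mutants 2 and 3, r with Tmem176b was 0.305 for Afp and 0.698 for Col1a1, and r with Tmem176a was 0.219 and 0.606. Leaving out 1 array at a time moved r with Tmem176b from −0.21 to 0.33 for Csf1r, from −0.56 to 0.73 for Afp, from −0.41 to 0.81 for Col1a1 and from 0.68 to 0.93 for Pecam1. Among deviations from the genotype means, r with Tmem176b was 0.685 for Pecam1, 0.444 for Csf1r, 0.316 for Afp and 0.320 for Col1a1.

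**Figure D3:**
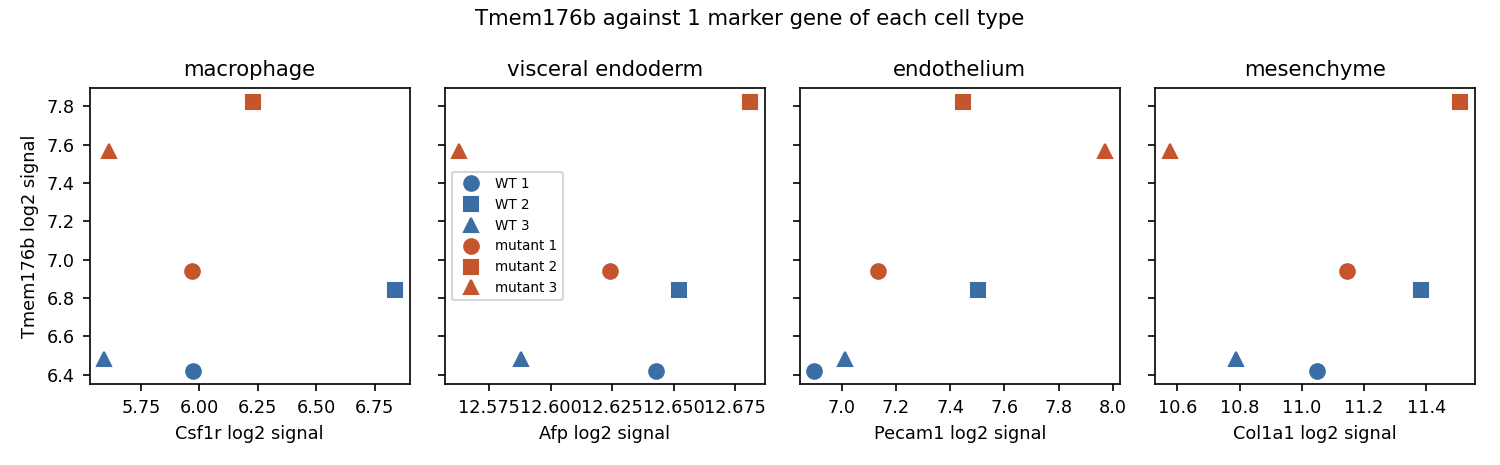
Log2 signal of Tmem176b (vertical axes) against the log2 signal of Csf1r, Afp, Pecam1 and Col1a1 (horizontal axes, each with its own scale) in 6 arrays. The arrays with the highest Tmem176b, mutants 2 and 3, lie at opposite ends of the Afp and Col1a1 axes and are 2 of the 3 highest arrays in Pecam1.

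Wider lists of genes for each cell type were read in the same arrays, and limma called 0 members of any of the 10 lists at an adjusted p of 0.05. Over the 10 lists, r of the list mean with the mean of the members ran from −0.856 for primitive red cells to 0.755 for endothelium. For deviations from the genotype means these 2 lists gave −0.823 and 0.525. No p is attached to these values. Endothelial genes had differences above 0 for 22 of 23 tested members, with a median of 0.21 and 6 at an unadjusted p under 0.05, where all tested probe sets had 52.4% above 0 and 3.53% at such a p. Notch1, a receptor of arterial fate, read 6.99, 6.96 and 7.07 in wild types 1 to 3 against 7.31 and 7.26 in mutants 2 and 3 and 7.28 in the library labelled mutant 1 (difference 0.28, limma adjusted p = 0.999). Tie1, an endothelial receptor, also differed by 0.28. The summed endothelial signal on the log2 scale was 12.02 to 12.22 in wild type and 12.16 to 12.54 in the mutants, so the groups overlapped. Relative to the wild-type mean the mean of the list was highest in mutant 3, at 0.43, ahead of mutant 2 at 0.18 and wild type 2 at 0.13, whereas both members were highest in mutant 2. The count above 0 became 23 of 23 with a median of 0.35 when wild type 2 and the library labelled mutant 1 were left out, and 19 of 23 with a median of 0.15 without mutant 3. The part of endothelial RNA in the signal of the members was not tested.

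Primitive red cell genes went the other way from the members. Differences were below 0 for 17 of 17 tested genes, with a median of −0.34 and 3 at an unadjusted limma p under 0.05, where all tested probe sets had 47.6% below 0 and 3.53% at such a p. Alas2, which catalyses the first step of haem synthesis in red cells, read 10.34, 10.40 and 10.45 in wild types 1 to 3, 9.34 in mutant 2, 10.11 in mutant 3 and 10.14 in the library labelled mutant 1 (difference −0.53, limma adjusted p = 0.999). Hbb-y, an embryonic globin, differed by −0.25. Set against the wild-type mean, the list stood at −0.82 in mutant 2, where both members peaked, but at −0.11 in mutant 3 and −0.10 in the library labelled mutant 1, while Tmem176b was 0.99 above the wild-type mean in mutant 3 and 0.36 in the library labelled mutant 1. The summed signal of the list ran from 14.87 to 14.91 in wild type and from 14.35 to 14.79 in the mutants, without overlap. The brightest genes weigh most in this sum. By list mean, wild type 2 stood at −0.085, just above the −0.10 of the library labelled mutant 1 and the −0.11 of mutant 3. The part of red cell content in the signal of the members was not tested. Without mutant 2, the array lowest in red cell genes, 14 of the 17 red cell genes were below 0 with a median of −0.13, and the member differences were 0.67 for Tmem176b and 0.46 for Tmem176a. When wild type 2 and the library labelled mutant 1 were left out, the median of the red cell list was −0.58.

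Markers of the cells in which the members are best known were partly dim. Of 23 macrophage genes measured, 11 were dim, among them Adgre1, Lyz2, Cd14 and the complement genes C1qa, C1qb and C1qc. Others were bright, with mean signals of 9.99 for Lyve1, which lymphatic and other endothelium also expresses, 7.96 for the mannose receptor gene Mrc1 and 7.31 for Mertk, a receptor for dying cells. The 12 tested ones had a median difference of −0.034, 5 of them above 0, where 52.4% of all tested probe sets were above 0. The summed signal of the macrophage list was 10.85 to 11.09 in wild type and 10.82 to 11.22 in the mutants. Ptprc, the leukocyte antigen CD45, differed by −0.19 and Laptm5, a lysosomal protein of blood cells, by 0.12. Of 21 genes of dendritic and antigen-presenting cells 13 were dim, including Cd74, Ciita, Itgax and Flt3. The summed signal of that list was 8.81 to 8.998 in wild type and 8.87 to 8.99 in the mutants, and H2-Ab1, a class II antigen-presenting chain, differed by 0.17 (limma adjusted p = 0.999). Of 14 RORgt lymphoid and T cell genes 7 were dim, including Il23r, Il7r and Cd4, with a summed signal of 8.57 to 8.91 in wild type and 8.74 to 9.0 in the mutants. Ahr, the aryl hydrocarbon receptor, differed by 0.22 and Lat, a T cell adaptor, by −0.10. By summed signal all 3 lists overlapped between the genotypes. By list mean the RORgt lymphoid and T cell list did not overlap. Relative to the wild-type mean it ran from −0.032 to 0.016 in wild type and from 0.061 to 0.107 in the mutants. Dim genes count in this mean, and the 7 tested genes of the list had a median difference of −0.015, 3 of them above 0.

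Relatives and pathway genes of the members were mostly dim. In the MS4A family 14 of 17 measured genes were dim, and Ms4a8a and Ms4a15 differed by −0.065 and 0.073. Of 19 inflammasome genes measured 10 were dim, among them Nlrp3, Casp1 and Il1b. The 9 tested had a median difference of 0.0070, 6 of them above 0, where 52.4% of all tested probe sets were above 0. P2rx7, an ATP receptor that activates the NLRP3 inflammasome, differed by 0.14 and Txnip, a thioredoxin-binding protein, by 0.18. In neither list did limma call a gene at an adjusted p of 0.05. An unadjusted limma p under 0.05 was seen for 0 genes of both, against 3.53% of all tested probe sets. With 3 and 9 genes tested, nothing is read from these counts.

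The visceral endoderm, mesenchyme and trophoblast lists overlapped between the genotypes. Visceral endoderm genes had differences above 0 for 13 of 21 tested members (median 0.0080; 52.4% of all tested probe sets were above 0). The count was 6 of 21 without mutant 2 (median −0.035), 18 of 21 without mutant 3 (median 0.11), 9 of 21 with the library labelled mutant 1 left out and 8 of 21 when that library and wild type 2 were left out (median −0.030). Their list mean was lowest in mutant 3, at −0.15, and highest in mutant 2, at 0.11. Apob, an apolipoprotein, differed by 0.15 and Fgg, a fibrinogen chain, by −0.38. Mesenchyme and mesothelium genes had 13 of 20 above 0 (median 0.052). This became 17 of 20 without wild type 2 (median 0.23), 9 of 20 without mutant 2 (median −0.042), 9 of 20 without wild type 1 (median −0.0080), 10 of 20 without wild type 3 (median −0.026), 15 of 20 with the library labelled mutant 1 left out (median 0.21), and 17 of 20 when that library and wild type 2 were left out (median 0.38). Their list mean was highest in wild type 2, at 0.35, and 0.23 and 0.15 in mutants 2 and 3, with Vim, an intermediate filament protein, differing by 0.33 and Wt1, a mesothelial transcription factor, by −0.21. The trophoblast and decidua list, with 10 of 16 genes dim, was highest in wild type 2, at 0.54, and in mutant 2, at 0.39, which were also the highest arrays of their genotype for both members. In mutant 3 that list stood at −0.36, near wild type 3 at −0.37, while both members were high. Its Prl4a1, a prolactin-like hormone, differed by −1.11 with wild type 2 at 7.13. The difference was −0.23 without wild type 2 and 0.15 when the library labelled mutant 1 was left out as well. Prl8a2, of the same family and chosen after its values were seen, was highest in mutant 2, at 9.11, and next in wild type 2, at 7.44. The part of these tissues in the signal of the members was not tested.

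**Figure D4:**
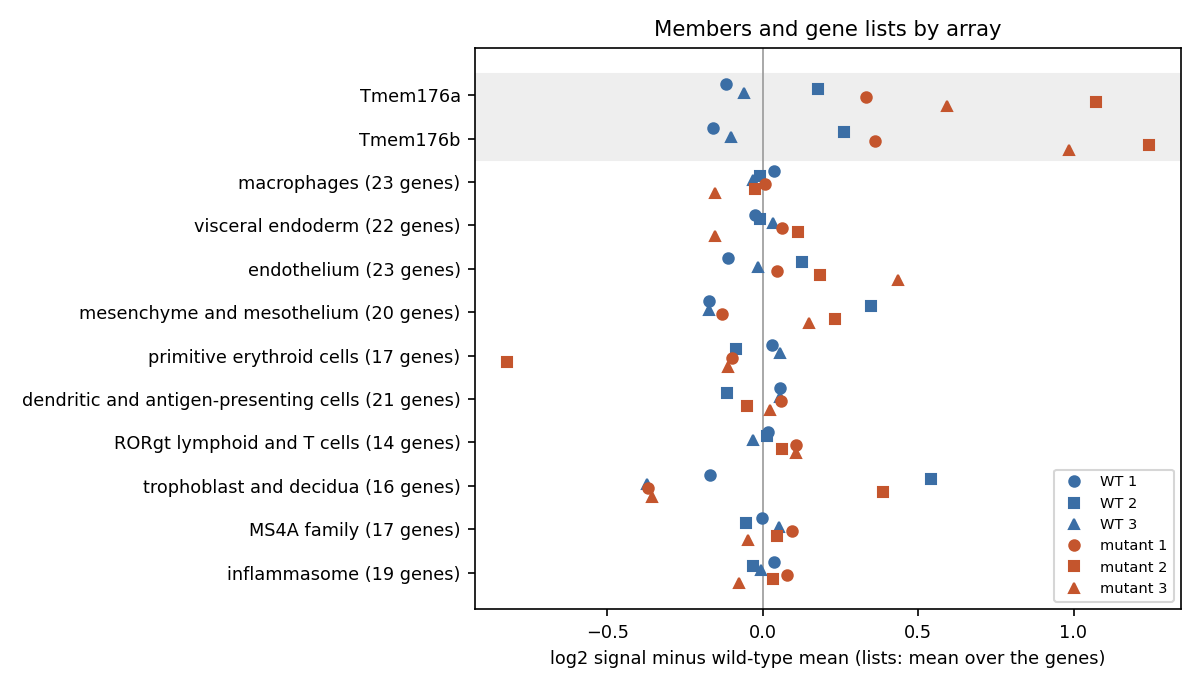
Log2 signal minus the wild-type mean (horizontal axis) of Tmem176a and Tmem176b (shaded) and the mean of each gene list (rows) in 6 arrays (points). Mutant 2 is farthest right for both members and farthest left for primitive red cell genes, at −0.82, and mutant 3 is farthest right for endothelium, at 0.43.

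Genes with the most similar array pattern were sought among 487 tested probe sets with a single symbol and a range of at least 1 over the 6 arrays, by Pearson's r with the mean of the members. The 8 highest were Tdrd12 (r = 0.968), Gatm (0.899), Lgals3bp (0.897), Ptges (0.873), Abca1 (0.873), Naip6 (0.870), Tm6sf2 (0.848) and Mt2 (0.841). Probe sets with a smaller range were left out, among them Gimap1 (range 0.80), whose r of 0.979 was above all 8. Of all 16387 tested probe sets, 15 had an r at least as high as Gimap1, itself and the members included. Tdrd12, a tudor domain protein of germ cell small RNAs, read 4.72, 5.21 and 4.66 in wild types 1 to 3, 5.79 in mutant 2, 5.41 in mutant 3 and 5.08 in the library labelled mutant 1. Its order of arrays was that of the members except that wild types 1 and 3, and wild type 2 and the library labelled mutant 1, changed places. Gatm, the first enzyme of creatine synthesis, read 6.81 in mutant 2 and 5.58 to 6.04 elsewhere. Lgals3bp, a secreted galectin-binding glycoprotein, read 7.39 in mutant 2, 7.11 in mutant 3 and 6.98 in wild type 2, and 6.08 to 6.39 on the other arrays. Mutant 2 was the highest array for Ptges, a prostaglandin E synthase, at 7.03, for Abca1, a cholesterol exporter, at 8.06, for Naip6, a sensor protein of the inflammasome family, at 5.35, and for Tm6sf2, a protein of lipoprotein secretion, at 6.92. Mt2, a metallothionein, was highest in mutant 3, at 12.09. None of the 8 passed the limma test between genotypes (adjusted p = 0.999 for each).

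The most opposed patterns by the same measure were those of Tnrc6a itself, Aldh1b1 (r = −0.936), Ctse (−0.910) and Abhd1 (−0.906). Aldh1b1, a mitochondrial aldehyde dehydrogenase, read 7.37, 7.24 and 7.69 in wild types 1 to 3, 6.40 in both mutants 2 and 3, and 6.87 in the library labelled mutant 1. Ctse, the aspartic protease cathepsin E, was lowest in mutant 2, at 5.56, and highest in wild type 3, at 7.53. Abhd1 read 6.14 and 6.19 in mutants 2 and 3 and 7.12 to 7.96 on the other arrays. These r values rank patterns over 6 arrays that share their genotypes and normalization, and no p is attached to them.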

How the data were processed

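Total RNA of 6 yolk sacs was extracted with Trizol and labelled with biotin, per the labels' protocols. The deposited table holds the authors' log2 signal of each probe set, and MAS5 is the only tool in the submitters' processing notes. For the background step, the normalization and the array's genome build, the sources used here give nothing. The log2 scale was read from the values (0.66 to 13.7), which were used as deposited. No depth applies to arrays, whose number limits the precision.

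Genes came from GEO's platform annotation, with several probe sets of a gene represented by the brightest. Gene order and promoter sequences came from RefSeq (GRCm38.p6), where both members matched. Protein sequences were not analysed here. Named probe sets whose mean reached the 30th percentile (4.29) were fitted with limma 3.58.1 in R 4.3.3, mutant minus wild type, with Benjamini-Hochberg adjustment over 16387 probe sets and 3.47 prior degrees of freedom. The fit was tested on simulated data. Intervals use its moderated SE. Exact permutation tests enumerate all array pairings. In each list the members past the threshold, up to 4, or else the 2 with the lowest p are named. Neighbours are the 10 nearest genes with a probe set on each side. Genes alike are the 8 highest and 4 lowest by r among those with a range of at least 1, without sex genes or clone names. The members and lists were chosen with earlier results of these data known. Alternatives were quantile normalization, median centring, other filters, variance models, array weights, the methods' t-test, a replicate block, Xist as a covariate and leaving out arrays. Samples are separate embryos.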

Additional observations from a re-analysis of the deposited data

How the results depend on the processing

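Both members kept a difference above 0 in all 17 alternatives, from 0.46 to 0.92 for Tmem176a and from 0.67 to 1.24 for Tmem176b. Leaving out 1 array gave 0.46 to 0.83 for Tmem176a and 0.67 to 1.11 for Tmem176b, and correlations of the pair from 0.970 to 0.998. When the library labelled mutant 1 and wild type 2 were both left out, the difference of Tmem176b was 1.24 and 1 probe set, that of Tnrc6a, passed the adjusted limma threshold (adjusted p = 0.00285), against 0 with all arrays and in the other 16 alternatives. For Tnrc6a these arrays lay nearest to the other genotype. With the replicate block the differences stayed at 0.67 (SE 0.11) and 0.86 (SE 0.13) and 0 probe sets passed. Deviations of same-numbered arrays correlated at 0.448, 0.146 and −0.107, and those of arrays with different numbers at −0.452 to 0.236. Whether the numbers pair the samples is not settled by these values. Probe sets at an unadjusted p under 0.05 ranged from 395 without mutant 2 to 1372 without mutant 3 when 1 array was left out, against 579 with all arrays, and numbered 1086 with array weights and 1173 with both of those arrays left out. The sign of the Csf1r, Afp and Col1a1 differences turned in 2, 6 and 4 of 17 alternatives, and that of Pecam1 and Gimap1 in 0. With 3 arrays per genotype, the 95% intervals of the member differences are 0.34 to 1.39 and 0.23 to 1.10.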

Other observations

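Among 10110 pairs of consecutive protein-coding genes that were both tested, the median correlation over the 6 arrays was 0.091, and 14 pairs (0.138%), Tmem176b with Tmem176a included, had an r at or above that of the members. Only 17 such pairs had a range of at least 1 in both genes. Their median r was 0.81, and besides the members, Col4a1 with Col4a2, genes of basement membrane collagen chains, and 2 pairs of Y-linked genes had an r as high. Dcn with Lum, matrix proteoglycans of mesenchyme, had r = 0.950. Starts of different genes that point away from each other at most as far apart as those of the members belonged to 4.85% of 27025 genes. The 241 pairs of this kind with both genes tested had a median r of 0.137, and 1 of them, the members themselves, reached the r of the members. These pairs share the same 6 arrays, and the values are descriptions with no test. The members were picked for a large genotype difference and taken for this likeness, so nothing is read from their place among the pairs. The 241 pairs were not limited to wide ranges. Of the 17 pairs with a wide range in both genes, 4 (23.5%), the members included, reached the r of the members.

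Xist, which marks the inactive X chromosome, read 9.63 or more in wild type 1, mutant 3 and the library labelled mutant 1, and at most 3.90 on the other arrays. These arrays were the lowest, the second highest and the third highest in Tmem176b. With the Xist level as a covariate the differences of Tmem176b and Tmem176a were 0.99 and 0.79.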
